A study of Homo sapiens with 9 samples.

Results

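10 genes encoding ligands of the tumor necrosis factor (TNF) superfamily were followed in RIVA cells, an established human line of the activated B-cell type of diffuse large B-cell lymphoma (ABC-DLBCL). The members were the rows of the count table named TNF, LTA, LTB, CD70, TNFSF15, TNFSF9, TNFSF13B, TNFSF4, TNFSF8 and TNFSF10, and all 10 were found among the 60656 genes listed. The cells carried a lentiviral plvx-Tetone construct, which doxycycline switches on, with no insert (vector, labelled as wild type for BCL10), with BCL10 S136X, a truncation of the protein's C-terminal tail, or with BCL10 R58Q, a substitution in its CARD domain. All 9 libraries, 3 in each group, came from cells given doxycycline for 24 h, the vector cells included. The dose is written as 200 ng/mL in the treatment protocol of the labels, while the treatment field gives the same figure per microlitre. RNA was taken from whole cultures, and each mutant was added to the cells' own BCL10. A group with the wild-type construct was not analysed here, so an effect of raising BCL10 itself cannot be told apart from an effect of the mutations.

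Most TNF superfamily ligands are made as membrane-bound trimers, some of which are cut from the cell surface. The ligands signal through receptors of the TNF receptor superfamily on the same or neighbouring cells. Many of the receptors feed into canonical or alternative NF-kB signaling, and others carry death domains that can start apoptosis. Several of the ligand genes, TNF and LTA among them, are themselves textbook NF-kB target genes. BCL10 acts with MALT1 in a signaling complex that links the B-cell receptor to NF-kB in ABC-DLBCL. B cells normally make lymphotoxins, TNF and CD70 after activation.

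Total counts ranged from 28047713 to 33122267 per library. BCL10, the targeted gene, had 885 to 1268 counts in vector libraries, 9838 to 14293 in S136X and 10117 to 10596 in R58Q, so vector and mutant libraries matched their labels. Counts per gene do not tell the 2 mutants from each other. The B-cell markers MS4A1, CD79A, CD79B, PAX5, CD22 and CD74 all passed the filter on low counts, and the lowest value among them was 2830 counts, for CD79B in an S136X library. Of the T-cell markers, CD3D, CD3G and CD2 had 0 to 2 counts per library, CD3E 1 to 9 and CD247 26 to 63. The myeloid markers CD14, LYZ, CSF1R and ITGAM had 0 to 12 counts, and FCGR3A had 0 counts in all 9 libraries, which allows up to 3 counts in each. All R58Q libraries carry a later date in their column names than the other 6 libraries, which share 1 date, so the date and R58Q cannot be told apart. The labels do not say that replicates were separate cultures, and p-values measure the spread between these libraries.

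More than 5 in 10 of the tested members were called higher than vector in each mutant, led by LTA, TNF and TNFSF15, and in no member was a fall called. Of 8 other ligands of the superfamily, 3 were tested and 0 were called in any comparison. At the shares of all genes called, given below, 0 of 3 does not set these ligands apart from other genes. A gene was called at an edgeR quasi-likelihood p under 0.05 after Benjamini-Hochberg adjustment over all genes tested and a change of at least 1.5-fold. In S136X cells, 5 of the 9 members tested were called higher than vector (TNF, LTA, LTB, CD70 and TNFSF15) and 0 lower, where 2.05% of all 15530 genes tested were called higher and 1.82% lower. In R58Q cells, 7 of the 10 members tested were called higher, with TNFSF9 and TNFSF13B in addition, and 0 lower, against 4.09% of 15435 genes called higher and 3.54% lower. TNFSF13B passed the filter on low counts in that comparison only through the R58Q libraries, and it was not tested in S136X against vector. The members were chosen with earlier results of these data known, so their shares called cannot be tested against those of all genes. Over the tested members the log2 fold changes had a median of 0.82 for S136X (9 members) and 1.25 for R58Q (10 members). Over all genes tested the medians were -0.02 and -0.03. The R58Q set includes TNFSF13B, at 1.47, which the S136X set lacks, so the 2 member medians are not over the same genes. In bulk RNA, a change in the number of cells that express a gene and a change in transcript per cell cannot be told apart.

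**Figure D1:**
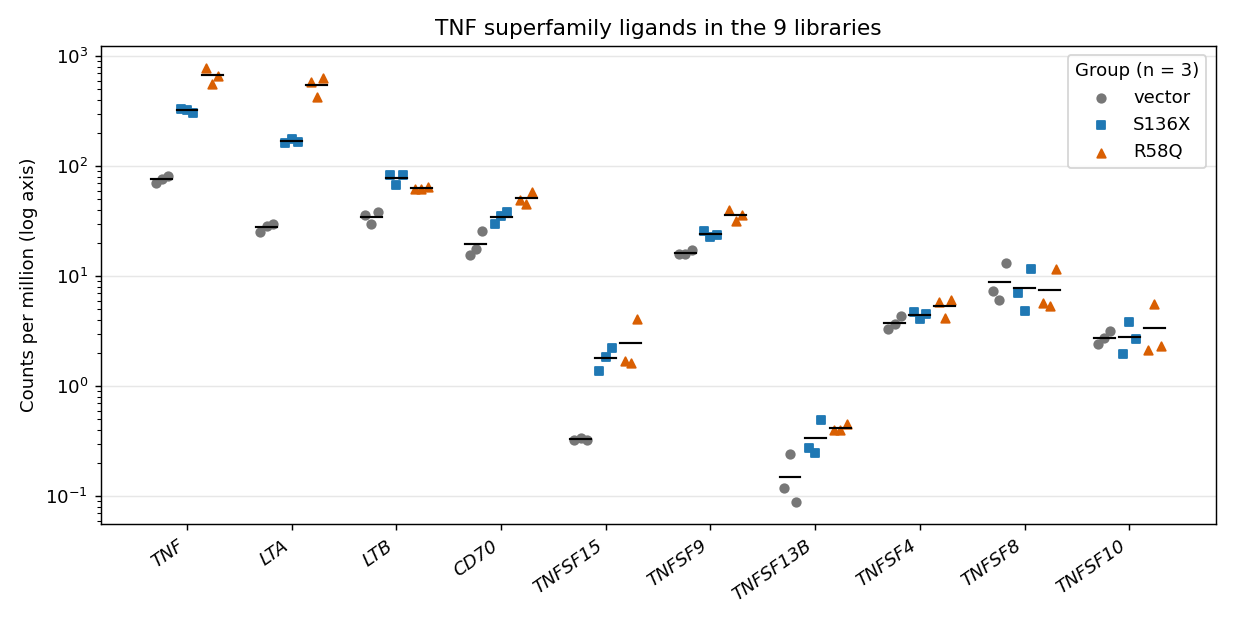
Levels of the 10 ligand transcripts in each library, in counts per 1e6 (CPM) on a log axis, with 1 symbol per library and a bar at the mean of each group (n = 3). TNF and LTA rise from 76.4 and 27.7 CPM in vector to 667.3 and 546.2 in R58Q, while the groups overlap for TNFSF4, TNFSF8 and TNFSF10.

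The summed level of the 10 members, in CPM (counts per 1e6 counts of the library), was 190.5 ± 19.98 in the vector libraries (SD, n = 3), against 643.1 ± 3.53 with S136X and 1382 ± 210 with R58Q. TNF and LTA together took 54.8% of the members' counts in vector (52.2% to 57.9% across libraries), 76.1% in S136X (74.0% to 78.2%) and 87.6% in R58Q (86.2% to 89.1%). Most of the difference between the groups in the summed level was therefore in these 2 transcripts.

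TNF encodes TNFα, the founding ligand of the family, which binds TNFR1 and TNFR2 (TNFRSF1A and TNFRSF1B). The gene (ENSG00000232810.4) lies on chromosome 6 of GRCh38 at 31575565 to 31578336. In replicates 1 to 3, vector libraries had 2387, 2505 and 2787 counts of TNF, against 9666, 10473 and 8755 in S136X and 23317, 16756 and 21504 in R58Q. The 3 groups did not overlap, and R58Q libraries varied most, with replicate 2 the lowest of them. The log2 fold change against vector for S136X was 2.07 (standard error 0.0718, 4.19-fold, edgeR adjusted p = 2.64e-06) and 3.12 in R58Q (standard error 0.129, 8.72-fold, edgeR adjusted p = 1.76e-05).

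LTA encodes lymphotoxin α, also called TNFβ, a secreted ligand of the same receptors that also joins lymphotoxin β on the cell surface. The gene (ENSG00000226979.9, chromosome 6, 31572054 to 31574324) ends 1240 bp before TNF starts. Vector libraries had 855, 927 and 1006 counts, S136X libraries 4771, 5738 and 4747, and R58Q libraries 17311, 12762 and 20599. The lowest R58Q library was again replicate 2, and it still held more than any S136X library. LTA had the largest fold change of the members in both mutants, with a log2 fold change of 2.61 for S136X (standard error 0.0761, 6.09-fold, edgeR adjusted p = 1.75e-06) and 4.30 in R58Q (standard error 0.156, 19.7-fold, edgeR adjusted p = 1.22e-05).

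LTB encodes lymphotoxin β, the membrane anchor of the lymphotoxin heterotrimer that signals through LTBR. The gene (ENSG00000227507.3, chromosome 6, 31580525 to 31582522) lies 2188 bp beyond TNF. Its counts were 1216, 972 and 1290 in vector, 2423, 2168 and 2361 in S136X and 1852, 1876 and 2100 in R58Q. Both mutants were above vector in every library, and here the S136X libraries held the most. The log2 fold change for S136X was 1.17 (standard error 0.114, edgeR adjusted p = 0.000829) and 0.87 in R58Q (standard error 0.0911, edgeR adjusted p = 0.000755).

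**Figure D2:**
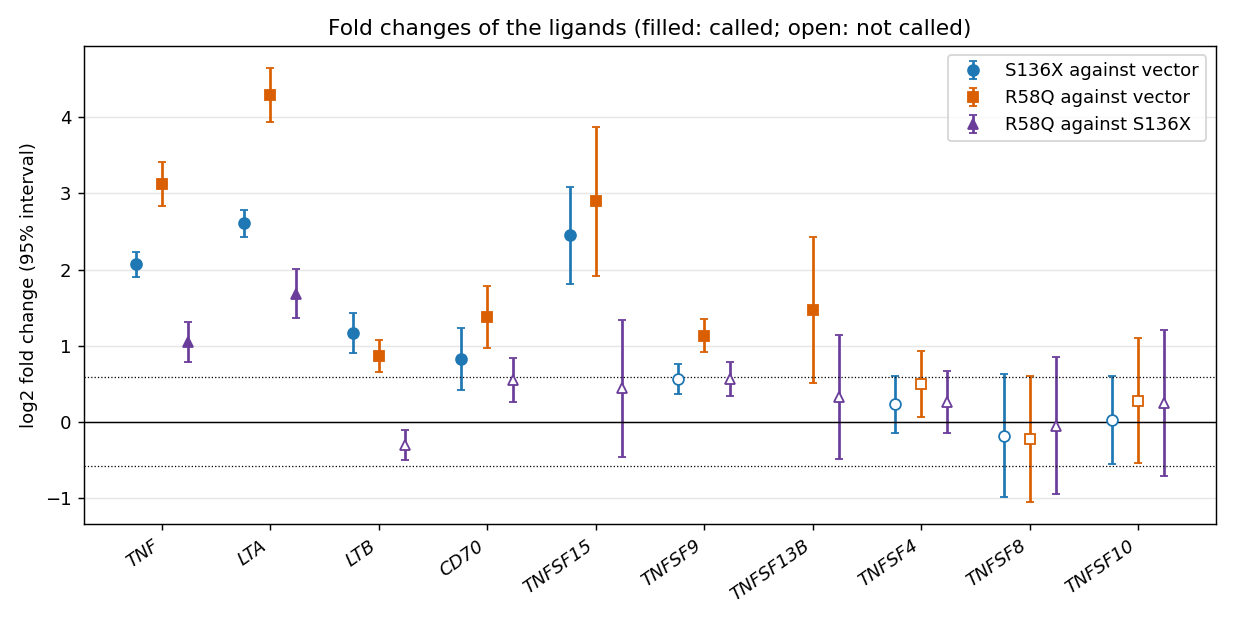
Log2 fold changes of the 10 ligands with 95% intervals from edgeR's quasi-likelihood fit, for S136X against vector, R58Q against vector and R58Q against S136X, with filled symbols where a gene was called and dotted lines at 1.5-fold. LTA reaches 4.30 in R58Q, and LTB alone among the called genes has its R58Q value (0.87) under its S136X value (1.17).

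The proportions of the 3 adjacent genes were then compared. Within each library, counts of LTA per count of TNF were 0.358, 0.370 and 0.361 in vector, 0.494, 0.548 and 0.542 in S136X and 0.742, 0.762 and 0.958 in R58Q. This ratio does not depend on how libraries are scaled. Its log2 was higher than in vector by 0.54 in S136X and by 1.17 in R58Q, and higher in R58Q than in S136X by 0.63. Counts of LTB per count of TNF ran the other way, at 0.509, 0.388 and 0.463 in vector, 0.251, 0.207 and 0.270 in S136X and 0.0794, 0.112 and 0.0977 in R58Q. The log2 of that ratio differed by -0.90 between S136X and vector, by -2.24 between R58Q and vector and by -1.34 between R58Q and S136X. None of these 6 comparisons had overlapping groups. Each had an exact two-sided permutation p = 0.1, the smallest that 3 against 3 libraries can give, and 0.15 after Benjamini-Hochberg adjustment over the 12 ratio tests made. As a share of the counts on the 3 genes, LTA took 20.01% ± 0.953 of them in vector libraries (SD, n = 3), 29.8% ± 1.46 with S136X and 42.7% ± 3.41 in R58Q, and LTB took 24.9% ± 2.63, 13.7% ± 1.65 and 5.03% ± 0.843. The share of TNF stayed between 48.6% and 57.3% in all 9 libraries.

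**Figure D3:**
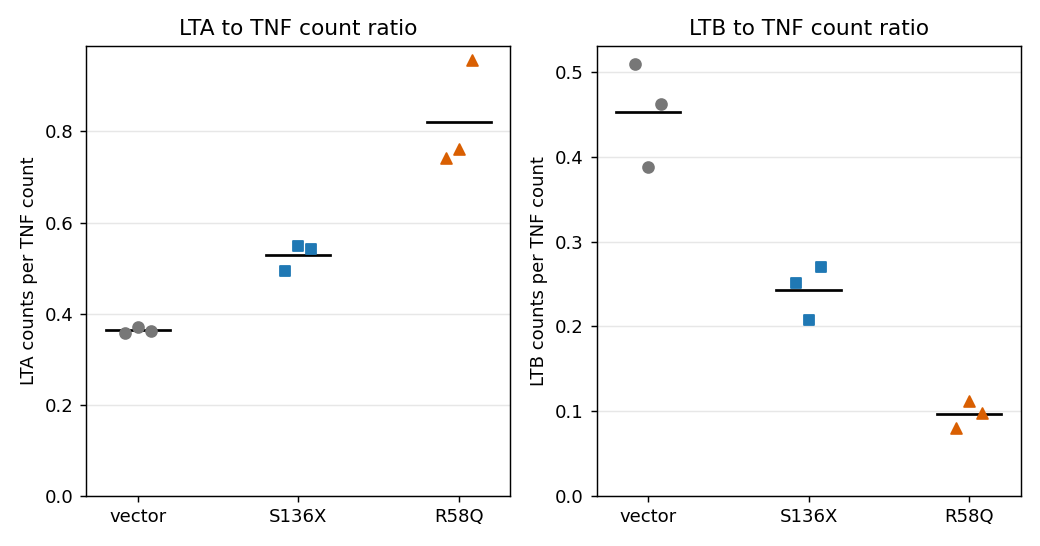
Counts of LTA (left) and of LTB (right) per count of TNF in each library, by group, with bars at the means (n = 3). The LTA ratio has a mean of 0.363 in vector and 0.821 in R58Q and the LTB ratio 0.453 and 0.0963, with no overlap between groups.

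The genes around the 3 ligand genes were read for comparison. Of 31 genes that start within 100 kb of LTA, TNF or LTB, 17 passed the filter on low counts and 0 were called in any of the 3 comparisons. Over all genes tested, 3.87% were called in either direction in S136X, 7.63% in R58Q and 0.434% between the mutants. At those shares, 0 of 17 does not set these neighbours apart. The 17 had medians of -0.07 (S136X) and 0.02 (R58Q) on the log2 scale. NFKBIL1, a neighbour on the LTA side, had a log2 fold change of 0.09 for S136X (edgeR adjusted p = 0.697) and 0.15 in R58Q (edgeR adjusted p = 0.425). LST1, a neighbour on the LTB side, had 0.07 (edgeR adjusted p = 0.937) and 0.23 (edgeR adjusted p = 0.705) with few counts. These 2 were picked for their position, with their values known. Around all 10 members, 60 genes started within 100 kb of a member's start, 25 of them were tested and edgeR called 0 in any comparison without the replicate number as a block. With the block, 1 was called in each mutant (CRB3, near TNFSF9) and 0 between the mutants. Of the 25, 1 had an unadjusted p under 0.05 in S136X, 3 in R58Q and 3 between the mutants. At an unadjusted p under 0.05, 4145 of 15530 genes passed over the whole table in S136X, 5576 of 15435 in R58Q and 1668 of 15195 between the mutants.

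**Figure D4:**
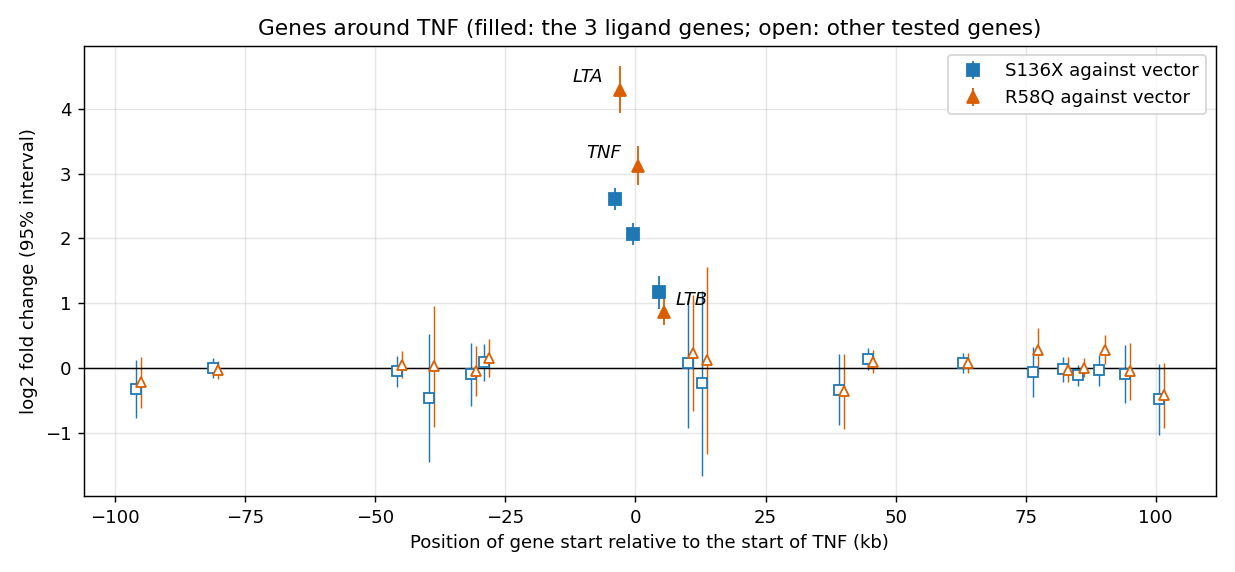
Log2 fold changes against vector, with 95% intervals, of the genes tested within 100 kb of LTA, TNF or LTB, by distance of their start from the start of TNF in kb. The 3 filled ligand genes lie between 0.87 and 4.30, and the 17 open neighbours, of which 0 were called, lie around 0.

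The window from 250 bases before to 50 bases after the transcription start was available in RefSeq for 8 of the 10 members (11 windows, GRCh38.p14), and not for CD70 and TNFSF8. The RefSeq start lay at the outermost GENCODE start of the gene for TNF and TNFSF9 and 45 to 235 bp inside it for LTA, LTB and TNFSF10. It lay 13509 bp inside the gene for TNFSF15, 18389 and 18478 bp inside for TNFSF13B and 1799 bp inside for TNFSF4, so those windows flank an internal start, and which start these cells used was not measured. Windows were searched on both strands for the κB consensus of 10 bases, for the AP-1 motif TGANTCA and for the TATA motif TATAAA. The κB consensus was found in LTA and LTB, and in 7.73% of the 35116 windows of all genes. A member counted if any of its windows matched, while the percentages are of single windows. Only exact matches to the pattern were sought, so κB sites that depart from it are missed, in TNF as elsewhere. AP-1 was found, among the 8 members, in the window at the internal TNFSF15 start alone, against 7.71% of all windows, and TATAAA in TNF, LTA, TNFSF9 and TNFSF10, against 11.5%. The 250 bases before the start of TNF, the member with the highest level in every group, are shown with TATAAA in capitals at -29 to -24 from the start (chr6:31575315-31575564, plus strand). Matches with flanks of 10 bases are shown for LTA (-103 to -94 from the second of its 2 RefSeq starts, chr6:31572176-31572205, plus strand), where a further match overlaps it shifted by 1 base, for LTB (-86 to -77, chr6:31582492-31582521, minus strand, where the consensus reads on the opposite strand) and for TNFSF15 (-120 to -114, chr9:114792634-114792660, minus strand), with the match in capitals. A match is a description of the letters, and binding was not measured.
TNF: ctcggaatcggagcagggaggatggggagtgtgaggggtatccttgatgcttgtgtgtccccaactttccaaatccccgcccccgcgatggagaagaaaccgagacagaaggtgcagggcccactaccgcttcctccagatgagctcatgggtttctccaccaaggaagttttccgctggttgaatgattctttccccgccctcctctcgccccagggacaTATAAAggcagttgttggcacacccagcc
LTA: ctaagccctgGGGGCTTCCCcgggccccag
LTB: aggggtgtgcGGAAAGTCCCagccaggtgt
TNFSF15: ctctttcttcTGAGTCAccctgtcctt

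TNF mRNA is a classic carrier of AU-rich elements, which shorten the life of a transcript. For each gene, the longest 3′ untranslated region among its protein-coding GENCODE transcripts was searched for them. The word ATTTA occurred 9 times in the 802 bases of TNF, 3 times in LTA and 0 times in LTB, and in 67.7% of 19126 genes at least once. The longer word TTATTTATT occurred 5 times in TNF, 1 time in LTA and in none of the other 8 members, while 8.21% of genes had it and 0.308% had it 4 or more times. Bases 465 to 494 of the TNF region, with 5 overlapping or adjacent ATTTA words in capitals, show the element.
TNF AU-rich element: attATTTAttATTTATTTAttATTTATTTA
Among the 3 adjacent genes, the fold change was largest for LTA and smallest for LTB in both mutants. The relation of fold change to these words was not tested. Transcript stability was not measured.

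CD70 encodes the ligand of CD27, a costimulatory receptor of T and B cells. The gene (ENSG00000125726.11) lies on chromosome 19 at 6583183 to 6604103. Its counts were 524, 574 and 869 in vector, 877, 1138 and 1101 in S136X and 1450, 1365 and 1902 in R58Q. Replicate 3 was the highest vector library and approached the lowest S136X library, and the groups did not overlap. CD70 was higher by 0.82 on the log2 scale for S136X (standard error 0.178, 1.77-fold, edgeR adjusted p = 0.0229) and 1.38 in R58Q (standard error 0.178, 2.60-fold, edgeR adjusted p = 0.00196). The S136X call did not hold in 4 of the 6 fits that left out 1 library (without vector replicate 1 or 2, or S136X replicate 2 or 3), where the adjusted p was 0.0509 to 0.108. The R58Q call held in all 6.

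TNFSF9 encodes 4-1BB ligand, whose receptor costimulates T cells. It lies 47258 bp from CD70 (ENSG00000125657.5, chromosome 19, 6531026 to 6535924). Vector libraries had 533, 524 and 587 counts, S136X libraries 759, 737 and 680, and R58Q libraries 1183, 957 and 1169. The groups did not overlap and stepped up in the order vector, S136X, R58Q. In R58Q the log2 fold change was 1.13 (standard error 0.0959, 2.19-fold, edgeR adjusted p = 0.000252). In S136X it was 0.56 (standard error 0.0875, edgeR adjusted p = 0.0064), which at 1.48-fold lies just under the 1.5-fold threshold, so TNFSF9 was not called there. The fold passed 1.5 in 3 of the 6 fits that left out 1 library. The ratio of CD70 to TNFSF9 counts had overlapping groups, with means (± SD, n = 3) of 1.19 ± 0.261 for vector, 1.44 ± 0.249 for S136X and 1.43 ± 0.201 for R58Q. The exact permutation p was 0.2, 0.3 and 1 in the 3 comparisons, and 0.267, 0.36 and 1 after adjustment over the 12 ratio tests.

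Without the replicate block, 0 of the 6 neighbours of CD70 and TNFSF9 tested within 100 kb were called by edgeR (13 listed). With it, CRB3, a cell polarity gene at 6463777 to 6467221 on chromosome 19, was called higher in both mutants, and it was named after its values were seen. CRB3 had 171, 141 and 276 counts in vector, 252, 225 and 413 in S136X and 265, 193 and 442 in R58Q, with replicate 3 the highest in each group and the groups overlapping. Its log2 fold change was 0.77 in S136X with and 0.78 without the block (edgeR adjusted p = 0.000859 and 0.147), and 0.71 with and 0.72 without it in R58Q (edgeR adjusted p = 0.00127 and 0.129). With the window widened to 200 kb, 49 genes around the members were tested and 1 was called in each comparison, TRIP10, which starts 154742 bp from the start of CD70 and was named after its values were seen. Over all genes tested, 3.87% were called in S136X, 7.63% in R58Q and 0.434% between the mutants. TRIP10, an adaptor protein of the actin cytoskeleton, had counts of 1205, 1215 and 1322 in vector, 2639, 2668 and 2714 in S136X and 4431, 3767 and 5031 in R58Q. Its log2 fold change for S136X was 1.26 (edgeR adjusted p = 5.32e-05) and 1.94 in R58Q (edgeR adjusted p = 1.87e-05).

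TNFSF15 encodes TL1A, the ligand of death receptor 3 (TNFRSF25). The gene (ENSG00000181634.8) lies on chromosome 9 at 114784652 to 114806039. It was close to silent in vector, with 11 counts in each of the 3 libraries. S136X libraries had 40, 60 and 63 counts and R58Q libraries 50, 49 and 133, with R58Q replicate 3 far above the others. The log2 fold change for S136X was 2.45 (standard error 0.28, 5.46-fold, edgeR adjusted p = 0.00168) and 2.90 in R58Q (standard error 0.431, 7.44-fold, edgeR adjusted p = 0.00341), and both calls held with any 1 library left out. Of the 31-base words in its longest transcript, 4.57% also occur in transcripts of other genes, more than for any other member, so part of its count is uncertain. In GENCODE, the spans of CD70, TNFSF8, TNFSF10 and TNFSF13B, introns included, overlap another gene on the opposite strand. Without a stated use of strand, reads from a stretch that such a pair shares cannot be told apart. The genes opposite them had 0 to 3 counts per library.

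TNFSF8, which encodes CD30 ligand, lies 87303 bp from TNFSF15 (ENSG00000106952.7, chromosome 9, 114893343 to 114930595) and was not called in any comparison. Its counts in vector were 249, 197 and 450, with 207, 155 and 330 in S136X and 171, 160 and 378 in R58Q. Replicate 3 was the highest in every group, and the groups overlapped. The log2 fold change for S136X was -0.19 (95% interval -0.997 to 0.62, edgeR adjusted p = 0.778) and -0.23 in R58Q (95% interval -1.06 to 0.60, edgeR adjusted p = 0.683), so a 1.5-fold change in either direction lies inside both intervals. The count of TNFSF15 per count of TNFSF8 was 0.0415 ± 0.0159 in vector (SD, n = 3), 0.257 ± 0.113 in S136X and 0.317 ± 0.0311 in R58Q. Neither mutant overlapped vector in this ratio (exact permutation p = 0.1 each, 0.15 adjusted over the 12 ratio tests), and the 2 mutants overlapped each other (exact permutation p = 0.4, adjusted 0.436).

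TNFSF13B encodes BAFF, the B-cell survival factor that myeloid cells supply in lymphoid tissue. The gene (ENSG00000102524.11, chromosome 13, 108251240 to 108308484) was at the edge of detection, with 4, 8 and 3 counts in vector, 8, 8 and 14 in S136X and 12, 12 and 15 in R58Q. The R58Q libraries were all above the vector libraries. The call in R58Q (log2 fold change 1.47, standard error 0.421, edgeR adjusted p = 0.0408) did not hold in 5 of the 6 fits that left out 1 library, that is, in all but the fit without vector replicate 2 (adjusted p 0.0412 to 0.132 over the 6). DESeq2 gave no adjusted p for it. Of the 5 myeloid markers, CSF1R was higher in every R58Q library than in every vector library (3, 2 and 8 counts against 1, 1 and 1), LYZ was lower in every R58Q library (1, 2 and 0 against 11, 9 and 5), CD14 and ITGAM overlapped and FCGR3A was at 0. Their part in the TNFSF13B result was not tested.

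TNFSF4, which encodes OX40 ligand, had 111, 121 and 149 counts in vector, 139, 131 and 129 in S136X and 173, 124 and 197 in R58Q (ENSG00000117586.11, chromosome 1, 173183731 to 173207331). R58Q replicate 2 lay within the vector range. The log2 fold change for S136X was 0.23 (95% interval -0.15 to 0.60, edgeR adjusted p = 0.421) and 0.49 in R58Q (95% interval 0.06 to 0.92, edgeR adjusted p = 0.101), and neither was called. Without R58Q replicate 2 the value in R58Q was 0.64 and was called (edgeR adjusted p = 0.0448).

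TNFSF10, which encodes TRAIL, a ligand that can trigger apoptosis, was not called either (ENSG00000121858.11, chromosome 3, 172505508 to 172523475). Vector libraries had 81, 89 and 108 counts, S136X libraries 57, 123 and 76 and R58Q libraries 63, 169 and 76. In both mutants replicate 2 was the highest, and the groups overlapped. The log2 fold change for S136X was 0.03 (95% interval -0.55 to 0.60, edgeR adjusted p = 0.962) and 0.28 in R58Q (95% interval -0.55 to 1.10, edgeR adjusted p = 0.621). Without replicate 2 of the mutant it was -0.25 (edgeR adjusted p = 0.581) and -0.31 (edgeR adjusted p = 0.342).

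Set against each other, the mutants were called different in 2 of the 10 members. TNF was higher in R58Q than in S136X by a log2 fold change of 1.05 (standard error 0.113, 2.07-fold, edgeR adjusted p = 0.0138), and LTA by 1.68 (standard error 0.138, 3.21-fold, edgeR adjusted p = 0.00419). Over all 15195 genes tested in this comparison, 0.27% were called higher in R58Q and 0.165% lower. The TNF call did not hold in 3 of the 6 fits that left out 1 library (without S136X replicate 2 or 3, or R58Q replicate 3), with adjusted p up to 0.137 and log2 fold changes of 0.92 to 1.16. The LTA call was lost only without S136X replicate 3 (adjusted p = 0.0801, log2 fold change 1.68). With the replicate number as a block, TNF was at 1.04 (edgeR adjusted p = 7.84e-10) and LTA at 1.66 (edgeR adjusted p = 7.79e-11). All R58Q libraries carry the later date, which cannot be told apart from the R58Q construct.

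Of the members not called between the mutants, CD70 and TNFSF9 were higher in every R58Q library than in every S136X library, at log2 fold changes of 0.55 (standard error 0.125, edgeR adjusted p = 0.127) and 0.56 (standard error 0.095, edgeR adjusted p = 0.0598). LTB was lower in every R58Q library, at -0.31 (standard error 0.0875, edgeR adjusted p = 0.214). Fitted with the replicate number as a block, the edgeR adjusted p was 3e-06 for CD70, 1.23e-06 for TNFSF9 and 0.000809 for LTB. Their log2 fold changes there were 0.54, 0.55 and -0.30, all under 1.5-fold, so none was called. TNFSF15, TNFSF13B, TNFSF4, TNFSF8 and TNFSF10 overlapped between the mutants, with adjusted p from 0.705 to 0.987. For TNFSF15 the 95% interval of the difference was -0.46 to 1.34, and R58Q replicate 3 stood apart from the other R58Q libraries.

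Levels of different genes were compared per kb of exon (CPM per kb). In vector, TNF stood first at 45.6 ± 3.33 (SD, n = 3), followed by LTB at 22.5 ± 2.82, LTA at 15.98 ± 1.25, CD70 at 12.8 ± 3.46 and TNFSF9 at 9.82 ± 0.474. LTA overlapped CD70, and CD70 overlapped TNFSF9. TNFSF8 came next at 3.05 ± 1.32, then TNFSF4 and TNFSF10, which overlapped at 0.961 ± 0.140 and 0.796 ± 0.112, and last TNFSF13B and TNFSF15, which overlapped at 0.0492 ± 0.0270 and 0.0416 ± 0.000829. In both mutants LTA passed LTB, at 97.3 ± 4.48 against 50.5 ± 5.86 in S136X and 314.5 ± 61.4 against 41.1 ± 0.642 in R58Q. In R58Q, LTA overlapped TNF (398.2 ± 67.6). TNFSF15 moved above TNFSF13B in both mutants. The order of CD70, TNFSF9, TNFSF8, TNFSF4 and TNFSF10 was the same in the 3 groups.

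The genes whose levels tracked TNF and LTA most closely were found by the root mean square difference, over the 9 libraries, between log2 CPM deviations from the vector mean, among 12835 genes. For TNF they were CD44, an adhesion receptor (0.222), CD58, an adhesion ligand of T-cell CD2 (0.271), CD80, a T-cell costimulatory ligand (0.297), IL4I1, an amino acid oxidase (0.315), and PLEK (0.320). For LTA they were EBI3, an interleukin subunit (0.270), LRRN3 (0.289), CCL22, a chemokine (0.491), DRAM1 (0.572) and CD80 (0.581). No other ligand of the superfamily was among either 5. Because they were chosen for closeness to TNF or LTA over these same libraries, the order of the groups in them was set by the choice. CD44, for example, lay 1.93 above vector in S136X and 2.81 in R58Q on the log2 scale.

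Other genes of the superfamily were read by list. Of 8 other ligands, TNFSF12, TNFSF13 and TNFSF14 passed the filter, and edgeR, DESeq2 and limma-voom each called 0 in any comparison. For 0 of the 3 was the unadjusted edgeR p under 0.05. The edgeR shares called over all genes tested were 3.87% in S136X, 7.63% in R58Q and 0.434% between the mutants. At those shares, 0 of 3 does not set these ligands apart. TNFSF12, with 12 to 21 counts per library, and TNFSF14, with 3 to 22, were near the floor. TNFSF13, which encodes APRIL, had 240 to 327 counts in vector, 206 to 252 in S136X and 182 to 233 in R58Q (log2 fold change -0.17, edgeR adjusted p = 0.463, and -0.30, edgeR adjusted p = 0.168). TNFSF11 and TNFSF18 had 0 to 3 counts. CD40LG, FASLG and EDA had 0 counts in all 9 libraries.

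Receptors of the family were called in both directions. Of 17 receptors, 12 were tested, and their log2 fold changes had medians of -0.06 for S136X and -0.01 for R58Q. In S136X, 0 were called higher and 2 lower, and in R58Q 1 was called higher and 1 lower. Over all genes tested, 2.05% were called higher and 1.82% lower in S136X, and 4.09% and 3.54% in R58Q. CD27, the receptor of CD70, had 3077, 2332 and 2469 counts in vector, 1031, 1559 and 1097 in S136X and 1327, 1585 and 1560 in R58Q. It was lower in both mutants, at a log2 fold change of -0.95 for S136X (standard error 0.134, edgeR adjusted p = 0.00441) and -0.70 in R58Q (standard error 0.108, edgeR adjusted p = 0.00408). The R58Q call was lost without vector replicate 1, the highest library, where the value was -0.56 and the fold fell under 1.5 (adjusted p = 0.00649). Ligand and receptor of this pair thus lay on opposite sides of vector in both mutants.

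TNFRSF17, which encodes BCMA, a receptor of BAFF and APRIL on plasma cells, had 663, 510 and 622 counts in vector, 269, 372 and 251 in S136X and 380, 385 and 366 in R58Q. It was lower in S136X by a log2 fold change of -0.86 (standard error 0.137, edgeR adjusted p = 0.00712). In R58Q the value was -0.54 (edgeR adjusted p = 0.0138), which lies under 1.5-fold. TNFRSF4, which encodes the OX40 receptor, was called higher in R58Q alone (counts 68, 43 and 51 in vector, 142, 79 and 82 in S136X and 143, 104 and 91 in R58Q). Its log2 fold change was 1.19 in R58Q (standard error 0.256, edgeR adjusted p = 0.015) and 1.07 in S136X (standard error 0.295, edgeR adjusted p = 0.0535), and R58Q against S136X gave 0.11 (edgeR adjusted p = 0.958). The R58Q call was lost without vector replicate 2 or 3. The fit with the replicate number as a block called 5 receptors in S136X (3 higher, 2 lower) and 4 in R58Q (3 higher, 1 lower). The 3 higher were TNFRSF1B, TNFRSF4 and TNFRSF8 in each mutant, with TNFRSF4 in S136X at 1.05 (edgeR adjusted p = 0.00272) and TNFRSF8, the receptor of TNFSF8, at 1.03 in S136X (edgeR adjusted p = 0.0438) and 1.06 in R58Q (edgeR adjusted p = 0.0207).

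**Figure D5:**
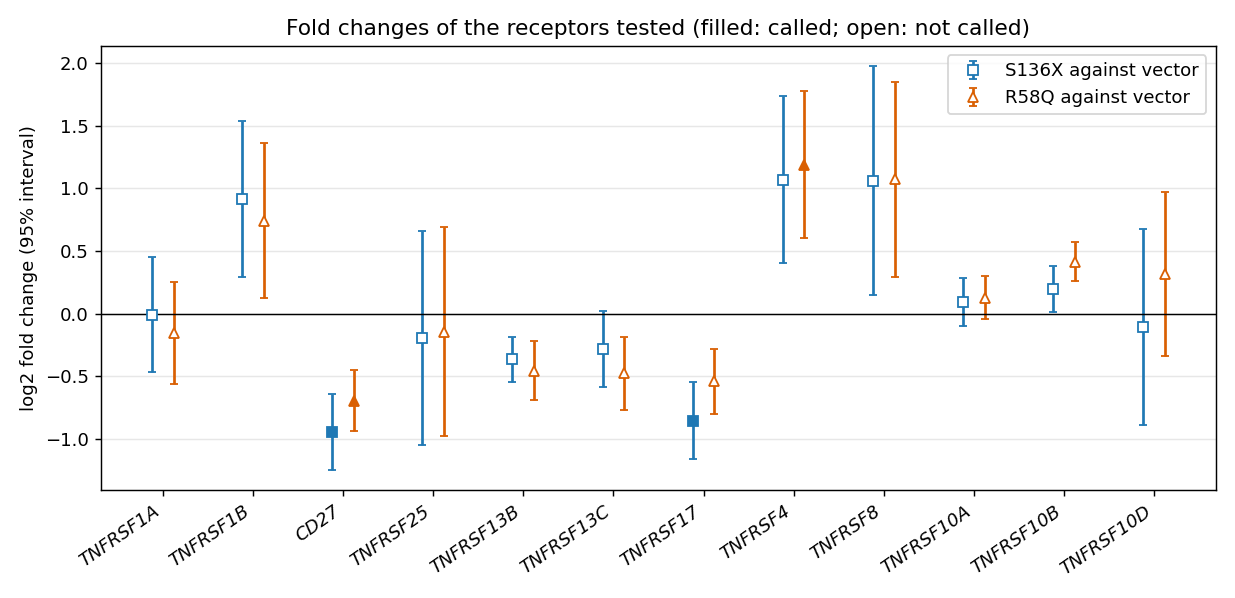
Log2 fold changes against vector, with 95% intervals, of the 12 receptors tested, with filled symbols where a gene was called. CD27 lies at -0.95 in S136X and -0.70 in R58Q, and TNFRSF4 at 1.07 and 1.19, of which only the latter was called.

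The receptors of the called ligands were read beside them. TNFRSF1A, the receptor of TNF and LTA on most cells, had a log2 fold change of -0.01 for S136X (edgeR adjusted p = 0.984) and -0.16 in R58Q (edgeR adjusted p = 0.571). TNFRSF1B, their second receptor, had 0.92 (edgeR adjusted p = 0.0683) and 0.74 (edgeR adjusted p = 0.0858), and was called in neither. With the replicate block it was called higher in both (0.88, edgeR adjusted p = 0.0203, and 0.71, edgeR adjusted p = 0.0324). LTBR, the receptor of the LTA and LTB heterotrimer, had 0 or 1 counts in each library, and the decoy receptor TNFRSF6B had 0 in all. TNFRSF9, the receptor of TNFSF9, had 0 to 7 counts. TNFRSF25, the receptor of TNFSF15, had -0.20 in S136X (edgeR adjusted p = 0.778) and -0.14 in R58Q (edgeR adjusted p = 0.808), and was called in neither. The BAFF receptor genes TNFRSF13B and TNFRSF13C were abundant, with 1071 to 1902 and 2944 to 6096 counts, and had values of -0.36 and -0.29 in S136X and -0.46 and -0.48 in R58Q, all under 1.5-fold. In the direct comparison of the mutants edgeR, DESeq2 and limma-voom each called 0 of the 12 receptors, and 2 had an unadjusted edgeR p under 0.05. Among all genes tested there, edgeR called 0.434%, and 1668 of 15195 had an unadjusted p under 0.05. Beside those values, neither count sets the receptors apart.

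Ligand shedding and processing enzymes were the last list. All 6 genes (ADAM17, the TNFα-converting enzyme, ADAM10, FURIN, SPPL2A, SPPL2B and RHBDF2, an iRhom that carries ADAM17 to the surface) were tested, and edgeR, DESeq2 and limma-voom each called 0 in any comparison. The edgeR shares called over all genes tested were 3.87% in S136X, 7.63% in R58Q and 0.434% between the mutants. At those shares, 0 of 6 does not set these genes apart. An unadjusted edgeR p under 0.05 was found for 3 in S136X, 4 in R58Q and 1 between the mutants. The whole table had 4145 of 15530 such genes in S136X, 5576 of 15435 in R58Q and 1668 of 15195 between the mutants. ADAM17 had a log2 fold change of -0.06 for S136X (95% interval -0.23 to 0.11) and 0.07 in R58Q (95% interval -0.07 to 0.20). RHBDF2 had -0.45 (edgeR adjusted p = 0.0107) and -0.46 (edgeR adjusted p = 0.0109), both under 1.5-fold, and SPPL2A, a protease that cuts the remaining TNF stump, had 0.17 (edgeR adjusted p = 0.161) and 0.38 (edgeR adjusted p = 0.00933).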

How the data were processed

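The 9 RNA-seq libraries (polyA-selected) were made from RIVA cells, 3 in each of 3 groups. The authors deposited raw read counts per gene and, beside them, a normalised signal in which each library's counts are divided by 1 factor, which was not used here. The submitters' processing notes name STAR, cutadapt, Picard and hg38, and the counting program, annotation release and use of strand are not given in the sources used here. For every comparison, the 6 libraries concerned were fitted on their own in edgeR 4.0.16 (R 4.3.3): filterByExpr with a minimum count of 10 and a total of 15, TMM factors, the quasi-likelihood F test and Benjamini-Hochberg adjustment over all genes tested. Calls needed an adjusted p under 0.05 and 1.5-fold. Standard errors are the log2 fold change over the square root of F. Ratios of counts within a library, with 0.5 added to each count before the log2, were compared by exact two-sided permutation. Exon lengths came from GENCODE (GRCh38), and CPM divide counts by total counts times TMM factor. The scripts were tested on simulated data.

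Replicate numbers from the labels were checked for pairing by correlating the libraries' deviations from their group means. Same-numbered libraries gave 0.143 to 0.626 (9 correlations, median 0.425) and differently numbered ones -0.459 to 0.169 (18 correlations, median -0.251). The 2 ranges overlapped, and pairing was weakest for vector replicate 2 (0.143 with S136X replicate 2 and 0.163 with R58Q replicate 2). A fit with the replicate number as a block was an alternative. Others were DESeq2 1.42.0, limma-voom (limma 3.58.1), other scalings, filters and thresholds, all 9 libraries in 1 fit, and each library left out. Members and lists were chosen with earlier results of these data known. Named genes were all members, BCL10, genes of the other lists and neighbours called in at least 1 comparison (at most 6 a list), defining markers with 0 counts, and the 5 genes most like TNF and LTA. Other receptors, ligands, proteases and neighbours that are named, TRIP10 and CRB3 included, were chosen after their values were seen. A B-cell marker of the lists is not reported here.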

Additional observations from a re-analysis of the deposited data

Results flagged for a closer look

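The effects of the 2 mutants differed for TNF and LTA when R58Q was compared with S136X directly. TNF was higher in R58Q by a log2 fold change of 1.05 (edgeR adjusted p = 0.0138) and LTA by 1.68 (edgeR adjusted p = 0.00419), in 3 of 3 R58Q libraries above every S136X library for both genes. The later date in the column names of all R58Q libraries cannot be told apart from this difference.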

How the results depend on the processing

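With the replicate number as a block, no member's call changed (5, 7 and 2 called), while receptor calls rose from 2 to 5 in S136X and from 2 to 4 in R58Q, and calls over all genes from 601 to 1014 in S136X and from 66 to 446 between the mutants. In the paired sign-flip test of the ratios the smallest p is 0.25. DESeq2 called 4 receptors in S136X and 146 genes between the mutants. Without a filter 4 receptors were called in each mutant. At 2-fold, 0 receptors were called in S136X and 1 in R58Q. With no fold threshold, 6 receptors were called in R58Q, and 2 proteases in S136X and 3 in R58Q. In the 200 kb window 1 neighbour was called in each comparison. With the replicate block, an alternative chosen after seeing the data for this list, 1 neighbour was called in each mutant and 0 between them. With 1 library left out, members called numbered 4 to 6 in S136X, 6 to 7 in R58Q and 0 to 3 between the mutants (1 without S136X replicate 2, 0 without S136X replicate 3 and 1 without R58Q replicate 3), and receptors 2 to 5 in S136X (5 without S136X replicate 2) and 1 to 4 in R58Q (1 without vector replicate 1 or 3, 4 without R58Q replicate 2). The log2 CD70 to TNFSF9 ratio between the mutants, -0.0073, ranged from -0.16 to 0.097. TNFSF10 in S136X, 0.03, was -0.011 with limma-voom, -0.015 with upper-quartile scaling, -0.029 with total counts, -0.0019 with the block, and -0.25 to 0.23 with 1 library left out (-0.06 without vector replicate 1). Other signs turned only when 1 library was left out: TNFSF8 ranged from -0.57 to 0.23 in S136X (0.08 without S136X replicate 2), from -0.68 to 0.17 in R58Q and from -0.51 to 0.35 between the mutants (0.11 and 0.14 without R58Q replicate 1 and 2). TNFSF10 ranged from -0.31 to 0.53 in R58Q and from -0.35 to 0.53 between the mutants, TNFSF15 from -0.14 to 0.66 between them, and TNFRSF4 from -0.12 to 0.46 (-0.08 without S136X replicate 2). The cause was not tested. Of the log2 fold changes of named genes under the alternatives, 565 kept direction and call, 13 gained a call, 16 lost it and 17 turned sign. Low counts limit TNFSF13B, TNFSF15 and TNFRSF4, and 3 libraries a group limit the exact permutation tests of the ratios to p = 0.1.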
